A study of Homo sapiens with 6 samples.

Results

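Serpins are a family of protein inhibitors, most of which block serine proteases. Their genes were taken here as the 33 rows of the deposited table whose symbol is SERPIN followed by a clade letter from A to I and a number, out of 26902 rows. SERPINH1, a collagen chaperone that shares the serpin fold, was left out by the same rule, and the angiotensinogen gene AGT and serpin pseudogenes do not match the pattern. The values come from bulk RNA sequencing of HMCB, an established line of human melanoma cells with the genotype Nras Q61K, which both groups share. In the siAHCYL1 group (3 libraries) the cells were transfected with an siRNA against AHCYL1, and in the siNC group (3 libraries) with a control siRNA, for 3 days. AHCYL1, also called IRBIT, binds channels that release calcium from the endoplasmic reticulum, and the study asks how it drives growth of melanoma cells with mutant NRAS. Only 1 cell line was used. The replicates are described as biological, but nothing says they came from separate cultures, so p-values measure the spread between these libraries, which may be partly technical.

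A serpin works as a suicide substrate: the protease cuts an exposed reactive loop, the serpin snaps into a more stable shape, and the enzyme is trapped in a covalent complex. Most clades are secreted and act in blood or on the cell surface, where they control clotting, the breakdown of fibrin by plasmin, complement and inflammation. Clade B members mostly stay inside the cell, where they are thought to guard it against proteases that leak from granules and lysosomes or are delivered by lymphocytes. In melanoma, serpins are known mainly as regulators of plasminogen activation at the cell surface, which bears on invasion.

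Values are in TPM, a measure of transcript abundance that is corrected for length and has the same total in every library. Because TPM keeps no sequencing depth, depth is unknown and counting error could not be given. In bulk RNA, fewer cells that express a gene and less RNA per cell cannot be told apart. The targeted gene was low in each siAHCYL1 library. AHCYL1 was at 13.45, 11.13 and 10.97 TPM in siAHCYL1 libraries and at 150.02, 134.05 and 131.09 TPM in siNC libraries (log2 fold change -3.44, SE 0.096, limma adjusted p = 5.64e-08). The exact permutation test gave p = 0.1, the smallest that 3 against 3 libraries allow. Of the melanocytic markers, the lineage factor SOX10 was between 992.99 and 1026.67 TPM in siAHCYL1 libraries and between 1025.35 and 1049.98 TPM in siNC libraries. Pigment genes were uneven: MLANA and PMEL stayed under 2 TPM and TYR was listed at 0, while OCA2 was between 55.06 and 60.17 TPM in siAHCYL1 libraries and between 45.09 and 50.02 TPM in siNC libraries.

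Of the 33 serpin genes, 13 were listed at 0 in all 6 libraries, 12 were above 0 somewhere but under the filter, and 8 were tested. To be tested, a gene had to reach 1 TPM in 3 or more libraries. Of these 8 genes, 3 were higher and 4 were lower after the AHCYL1 siRNA, and 1 did not pass (limma on log2(TPM + 1), Benjamini-Hochberg adjusted p under 0.05). Among all 13266 genes tested, 51.6% changed, 30.4% higher and 21.2% lower, so a changed serpin is not unusual in these data. The higher genes made up 58.9% of all calls, and 48.1% under quantile normalization. A change of at least 2-fold on the log2(TPM + 1) scale was called for 8.36% of all genes, and for 3 serpins, SERPINE2, SERPINA5 and SERPINB2, the last of these close to the limit. The groups did not overlap in 8 of the 8 serpins tested, against 59.2% of all genes. The median log2 fold change of the 8 was -0.05, beside 0.06 over all genes tested. SERPINA5 passed the filter only through its siNC libraries, so it had to differ, and the counts and median over the 8 include it.

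The summed level of the family hardly moved, but its make-up did. All 33 members added up to 645.46, 630.89 and 588.14 TPM in siAHCYL1 libraries and to 603.72, 635.02 and 601.28 TPM in siNC libraries. The 13 clade B genes added up to 342.37, 338.59 and 315.55 TPM in siAHCYL1 libraries, against 174.08, 188.62 and 180.88 TPM in siNC libraries. The 20 genes of the other clades added up to 303.09, 292.3 and 272.59 TPM in siAHCYL1 libraries, against 429.64, 446.4 and 420.4 TPM in siNC libraries. The mostly intracellular clade B thus held between 53.04% and 53.7% of serpin TPM in siAHCYL1 libraries and between 28.8% and 30.1% in siNC libraries. These sums are descriptions of genes already chosen, and no test was run on them. SERPINA3, SERPINE2, SERPINB6, SERPINB1 and SERPINB2 together held between 93.3% and 94.4% of serpin TPM in every library.

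**Figure D1:**
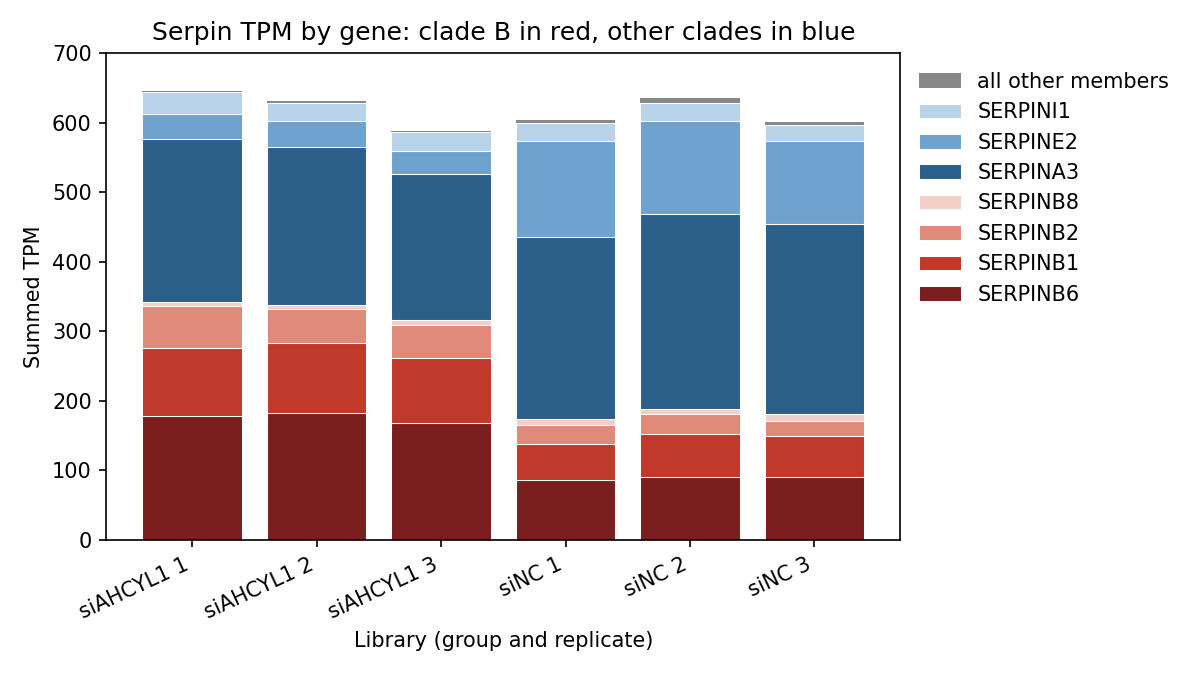
Summed TPM of the serpin genes in each library (vertical axis, TPM), stacked by gene, with the 3 siAHCYL1 libraries left of the 3 siNC libraries. The 4 tested clade B genes are in red, the 3 most abundant genes of other clades in blue and all other members in grey. The totals lie between 588.14 and 645.46 TPM, and the red part is taller in each siAHCYL1 library than in any siNC library.

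The upstream sequences of the 4 serpin genes with the largest changes among those above 5 TPM are shown so that their starts can be compared. The windows are the 250 bases before a RefSeq transcript start (GRCh38.p14), read 5′ to 3′ on the gene's strand. Of the 33 members, 26 had such a window, and so did all 8 tested members. SERPINE2 has windows at 2 starts, both given, and for SERPINB6, which has several, the window farthest upstream is given. Capitals mark matches on either strand to 6 short motifs: TATAAA, the TATA box; GGGCGG, the SP1 box; CCAAT, the CCAAT box; TGAGTCA, an AP-1 site; CACGTG, an E-box; and TGACG, the core of a cAMP response element.
SERPINE2 (chr2:224038641-224038890, minus strand): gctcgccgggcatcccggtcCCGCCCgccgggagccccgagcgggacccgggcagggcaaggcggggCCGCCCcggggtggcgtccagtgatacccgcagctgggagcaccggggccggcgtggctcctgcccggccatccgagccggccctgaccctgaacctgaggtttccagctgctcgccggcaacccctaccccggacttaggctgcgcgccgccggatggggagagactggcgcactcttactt
SERPINE2 (chr2:224031479-224031728, minus strand): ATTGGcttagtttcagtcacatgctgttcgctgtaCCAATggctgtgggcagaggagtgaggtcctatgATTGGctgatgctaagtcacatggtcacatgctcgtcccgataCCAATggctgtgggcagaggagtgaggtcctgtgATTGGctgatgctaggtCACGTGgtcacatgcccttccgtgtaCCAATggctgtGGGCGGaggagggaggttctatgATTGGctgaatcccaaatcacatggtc
SERPINB2 (chr18:63887455-63887704, plus strand): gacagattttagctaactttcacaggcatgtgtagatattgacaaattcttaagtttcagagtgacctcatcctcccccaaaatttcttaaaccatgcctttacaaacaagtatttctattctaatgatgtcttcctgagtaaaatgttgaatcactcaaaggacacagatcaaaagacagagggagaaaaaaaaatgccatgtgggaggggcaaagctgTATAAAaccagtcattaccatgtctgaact
SERPINB6 (chr6:2971568-2971817, minus strand): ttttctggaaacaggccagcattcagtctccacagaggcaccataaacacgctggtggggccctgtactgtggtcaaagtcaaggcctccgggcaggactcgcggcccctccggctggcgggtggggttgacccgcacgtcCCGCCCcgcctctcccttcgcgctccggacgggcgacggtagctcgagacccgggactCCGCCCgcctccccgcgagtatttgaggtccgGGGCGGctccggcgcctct
SERPINB1 (chr6:2841864-2842113, minus strand): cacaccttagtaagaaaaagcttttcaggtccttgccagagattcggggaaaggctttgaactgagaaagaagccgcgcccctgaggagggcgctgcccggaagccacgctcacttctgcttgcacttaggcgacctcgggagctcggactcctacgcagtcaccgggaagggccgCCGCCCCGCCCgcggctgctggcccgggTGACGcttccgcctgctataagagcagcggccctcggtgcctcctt
The upstream SERPINE2 window, at 75.2% G and C, held 2 GGGCGG matches. The downstream SERPINE2 window held 7 CCAAT matches in a repeated stretch, with 1 CACGTG and 1 GGGCGG. Of all 35116 upstream windows of this length, 7 (0.0199%) held at least 7 CCAAT matches, a count looked at after this window was seen. SERPINB2 held 1 TATAAA and none of the other 5 motifs, with 37.2% G and C. SERPINB6 held 3 GGGCGG and SERPINB1 held 2 GGGCGG and 1 TGACG. Over all windows, at least 1 match was held by 10.7% for TATAAA, 42.6% for GGGCGG, 32% for CCAAT, 4.2% for TGAGTCA, 6.34% for CACGTG and 21.2% for TGACG. The 2 GGGCGG matches of SERPINB1 overlap each other. A match is a string of letters in a window, and no binding was measured in these libraries. The table of TPM per gene does not tell which of several starts was used. In GENCODE 29 the genes SERPINE2, SERPINB2 and SERPINB6 begin upstream of the windows shown, and SERPINB1 begins inside its window. The sequences before those GENCODE starts are not shown.

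SERPINE2 had the largest fall among the serpins above 5 TPM. It encodes protease nexin-1, a secreted inhibitor of thrombin, urokinase and plasmin that sits on the cell surface and in matrix, and its gene lies at chromosome 2, positions 223975112 to 224039319 (GENCODE 29, GRCh38). It was at 36.6, 36.25 and 32.91 TPM in siAHCYL1 libraries and at 138, 134.68 and 118.72 TPM in siNC libraries. The siAHCYL1 values lay far below all siNC values. The mean was 35.3 ± 2.04 TPM in siAHCYL1 libraries and 130.5 ± 10.3 TPM in siNC libraries (SD, n = 3 each), 3.70-fold lower after the AHCYL1 siRNA. On the log2 scale it fell by 1.86 (SE 0.081, limma adjusted p = 5.28e-07), and 62 of the 13266 genes tested had a lower log2 fold change. In siNC libraries SERPINE2 was the second serpin by level, and in siAHCYL1 libraries SERPINB6, SERPINB1 and SERPINB2 stood above it.

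SERPINA3, alpha-1-antichymotrypsin, an acute-phase inhibitor of cathepsin G and mast cell chymase, was the most abundant serpin in every library. It was at 233.38, 227.37 and 210.28 TPM in siAHCYL1 libraries and at 260.85, 279.48 and 273.49 TPM in siNC libraries. The groups did not overlap, and the difference was small, with 82.5% of the siNC mean left (log2 fold change -0.28, SE 0.063, limma adjusted p = 0.00501). SERPINA3 lies inside another annotated coding gene on the same strand, which also overlaps SERPINA5 and has no row in the table. Its siNC mean was at the 95.7th percentile of all genes tested, so the gene was strongly expressed in these melanoma cells. Markers of hepatocytes, the main source of SERPINA3 in blood, were at or near 0: 8 of 12 were listed at 0, and all 12 summed to between 0.27 and 0.58 TPM in siAHCYL1 libraries and between 0.09 and 0.25 TPM in siNC libraries.

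SERPINA5, the protein C inhibitor, acts on activated protein C, urokinase and kallikreins. It was at 0.12, 0.13 and 0.21 TPM in siAHCYL1 libraries and at 1.56, 2.8 and 2.25 TPM in siNC libraries, low in both groups. It fell by 1.46 on the log2(TPM + 1) scale (SE 0.20, limma adjusted p = 0.000316). With a pseudocount of 0.1 in place of 1 the value was -3.16, past that of SERPINE2. SERPINA4, kallistatin, overlaps SERPINA5 on the same strand and was listed at 0 in all libraries.

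SERPINI1, neuroserpin, a secreted inhibitor of tissue plasminogen activator known from neurons, was the tested member that did not pass. It was at 31.05, 27.23 and 27.11 TPM in siAHCYL1 libraries and at 26.8, 25.48 and 22.83 TPM in siNC libraries. The groups lay side by side without overlapping. The log2 fold change was 0.18, with a 95% interval from -0.03 to 0.39 (limma adjusted p = 0.143), which leaves room for a small rise.

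Among the clade B genes, SERPINB6 had the rise with the smallest p. It encodes an inhibitor of cathepsin G and trypsin-like proteases inside cells, also called PI-6, at chromosome 6, positions 2948159 to 2972165. It was at 178.44, 182.44 and 167.49 TPM in siAHCYL1 libraries and at 86.23, 89.78 and 90.72 TPM in siNC libraries. Every siAHCYL1 value was well above every siNC value, and the spread within each group was small. The mean was 176 ± 7.74 TPM in siAHCYL1 libraries and 88.9 ± 2.37 TPM in siNC libraries (SD, n = 3 each), 1.98-fold higher after the AHCYL1 siRNA (log2 fold change 0.98, SE 0.062, limma adjusted p = 3.55e-06).

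SERPINB1, the monocyte and neutrophil elastase inhibitor, rose as well. It lies in the same cluster, at positions 2832332 to 2842006. It was at 97.55, 100.88 and 94.15 TPM in siAHCYL1 libraries and at 51.63, 62.86 and 59.04 TPM in siNC libraries. The groups stood clearly apart, with a mean of 97.5 ± 3.37 TPM in siAHCYL1 libraries and 57.8 ± 5.71 TPM in siNC libraries (SD, n = 3 each). This was a rise of 0.75 on the log2 scale (SE 0.083, limma adjusted p = 8.13e-05). Neutrophil elastase and cathepsin G, the textbook targets of SERPINB1, were not among the genes tested, and cathepsin G (CTSG) was listed at 0 in every library.

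SERPINB2, plasminogen activator inhibitor type 2, is found inside cells and secreted, and blocks urokinase. Its gene lies at chromosome 18, positions 63871692 to 63903890. It was at 59.55, 48.6 and 47.05 TPM in siAHCYL1 libraries and at 26.77, 27.93 and 21.3 TPM in siNC libraries. SERPINB10 overlaps its end by 6717 bases on the same strand and was at or near 0. The lowest siAHCYL1 library was above the highest siNC library. It rose by 1.00 on the log2 scale (SE 0.12, limma adjusted p = 0.000156), a value within 1 SE of that of SERPINB6, and 644 of the 13266 genes tested had a higher log2 fold change.

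SERPINB8, an inhibitor of the convertase furin, went the other way. It was at 6.83, 5.99 and 6.86 TPM in siAHCYL1 libraries and at 9.39, 8.02 and 9.68 TPM in siNC libraries. The groups did not overlap, but the gap was narrow (log2 fold change -0.41, SE 0.12, limma adjusted p = 0.0185). The call was lost without siAHCYL1 replicate 2 (adjusted p = 0.0747), siNC replicate 1 (0.0546) or siNC replicate 3 (0.0663). HMSD overlaps SERPINB8 by 11850 bases on the same strand and did not pass, at 5.22, 7.02 and 5.68 TPM in siAHCYL1 libraries and 5.62, 4.22 and 2.19 TPM in siNC libraries. Where the authors' counting split reads between these genes, the level of SERPINB8 is uncertain.

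Leukocytes also express SERPINB1 and SERPINB2, and 2 of their markers moved with these genes. Of 13 immune and blood cell markers, 8 were listed at 0, among them CD3E, ITGAM and CSF1R, and 3 were tested. LCP1 and PTPRC rose and the globin gene HBA1, which has a near-identical copy, fell. The 13 markers summed to between 110.48 and 133.04 TPM in siAHCYL1 libraries and between 53.49 and 72.34 TPM in siNC libraries, most of it LCP1. The labels name only HMCB cells, and any link of these markers to the rise of the clade B serpins was not tested.

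**Figure D2:**
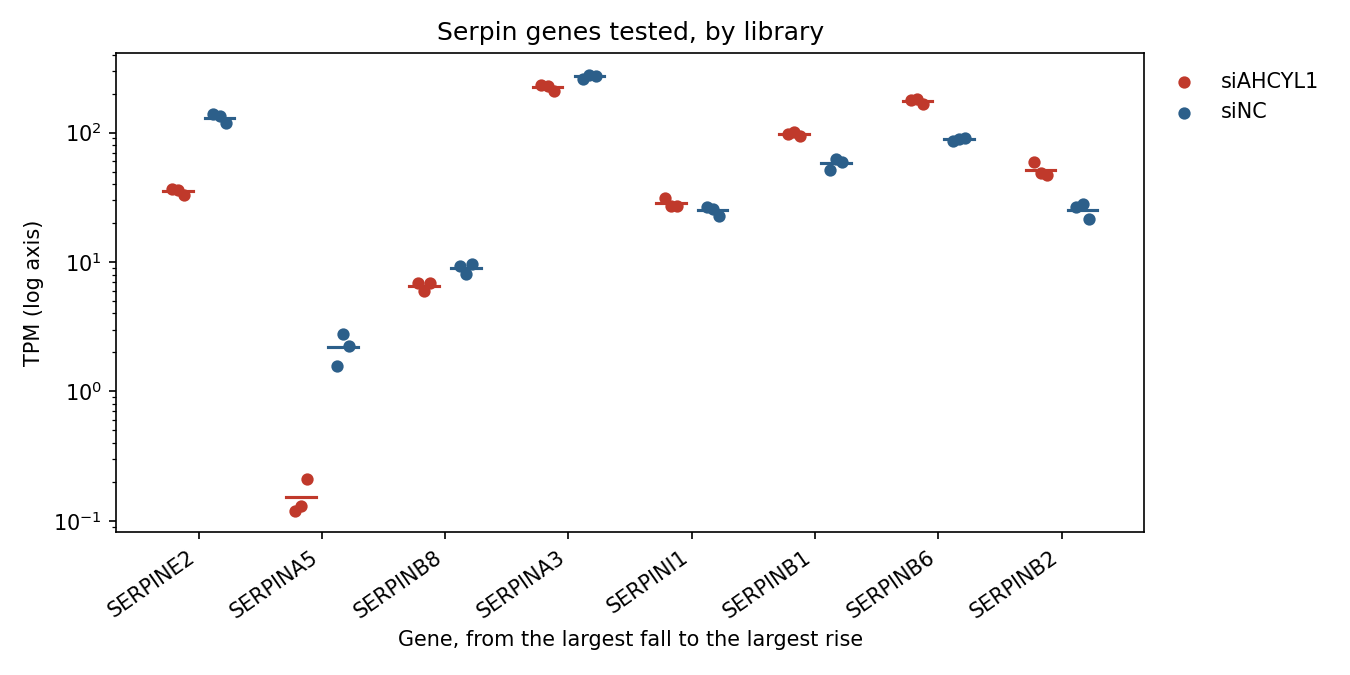
TPM of the 8 serpin genes tested, on a logarithmic vertical axis, for each library (points) with the group mean (line), siAHCYL1 left of siNC. Genes run from SERPINE2, with a log2 fold change of -1.86, to SERPINB2, with 1.00. Within each gene the points of the groups do not overlap.

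The 12 serpins above 0 but under the filter have no test, and their values are given only as levels. SERPIND1, heparin cofactor II, an inhibitor of thrombin, was at 0.44, 0.07 and 0.22 TPM in siAHCYL1 libraries and at 1.05, 1.08 and 0.94 TPM in siNC libraries. The whole SERPIND1 gene lies inside PI4KA on the opposite strand, and PI4KA was between 207.82 and 237.42 TPM in siAHCYL1 libraries and between 184.42 and 195.27 TPM in siNC libraries. The libraries were not directional, so reads of these genes cannot be told apart by strand. Of these serpins, 10 stayed under 1 TPM in every library. They were SERPINC1, antithrombin, with at most 0.65 TPM, SERPINF1, the antiangiogenic factor PEDF, with at most 0.64 TPM, and SERPINA6, SERPINB3, SERPINB9, SERPINB10, SERPINE3, SERPINF2, SERPING1 and SERPINI2 with at most 0.36 TPM. SERPINF2, alpha-2-antiplasmin, was at 0.06, 0.13 and 0.36 TPM in siAHCYL1 libraries and was listed at 0 in siNC libraries, and SERPING1 is the C1 inhibitor of complement. SERPINB9, the granzyme B inhibitor linked to escape from cytotoxic lymphocytes, was at most 0.14 TPM.

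The 13 members listed at 0 throughout were SERPINA1, SERPINA4, SERPINA7, SERPINA9, SERPINA10, SERPINA11, SERPINA12, SERPINB4, SERPINB5, SERPINB7, SERPINB11, SERPINB12 and SERPINB13. They include alpha-1-antitrypsin (SERPINA1), the thyroxine carrier (SERPINA7) and the epithelial maspin (SERPINB5). SERPINB3 and SERPINB4 are near-identical copies, so reads could be split between them. Of 12 epithelial and keratinocyte markers, 5 were listed at 0, among them CDH1 and KRT5, and 4 were tested, of which KRT8 rose, CLDN4 and KRT18 fell and KRT10 did not pass. They summed to between 46.84 and 52.55 TPM in siAHCYL1 libraries and between 47.5 and 65.15 TPM in siNC libraries.

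Of the 33 genes, 22 lie in 3 clusters, defined here as at least 3 members with no gap over 1000000 bases. The chromosome 6 cluster, positions 2832332 to 2972165, holds SERPINB1, SERPINB9 and SERPINB6. Its outer genes rose together while SERPINB9, between them, stayed at most 0.14 TPM. The flanking genes went both ways: WRNIP1, next to SERPINB1, fell (log2 fold change -0.64, limma adjusted p = 4.05e-05), NQO2, next to SERPINB6, had 74.66, 70.74 and 65.48 TPM in siAHCYL1 libraries and 79.22, 69.63 and 73.35 TPM in siNC libraries and did not pass, and BPHL rose (1.16, adjusted p = 9.74e-06). RIPK1 and GMDS rose by 0.22 and 0.32 on the log2 scale. Of the 6 flanking genes, 5 were tested, and 3 rose and 1 fell, beside 30.4% higher and 21.2% lower over all genes tested.

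In the chromosome 14 cluster, positions 94280455 to 94624055, 9 serpin genes are lined up and only SERPINA3 was above 3 TPM. SERPINA5, beside it, fell to near 0 in siAHCYL1 libraries, and 6 of the other 7 were listed at 0. Of the 6 flanking genes, IFI27 and IFI27L2 rose, and PPP4R4, GSC, DICER1 and CLMN did not pass. The chromosome 18 cluster, positions 63476761 to 64019779, holds 10 members, of which SERPINB2 and SERPINB8 were tested. SERPINB2 rose and SERPINB8, near its end, fell, with SERPINB10 between them at 0.36 TPM in 1 siAHCYL1 library and listed at 0 in the other libraries. Of the 7 other coding genes in and beside this cluster, 4 rose (KDSR, CDH7, CDH19 and DSEL), BCL2 fell, with a mean of 4.31 TPM in siAHCYL1 libraries and 9.59 TPM in siNC libraries (limma adjusted p = 0.0001), and VPS4B and HMSD did not pass. Over all genes tested 30.4% rose and 21.2% fell, and whether the neighbours of the clusters differ from this was not tested. SERPINE2, on chromosome 2, and SERPINI1, on chromosome 3 with SERPINI2 nearby, are in no cluster under this rule.

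**Figure D3:**
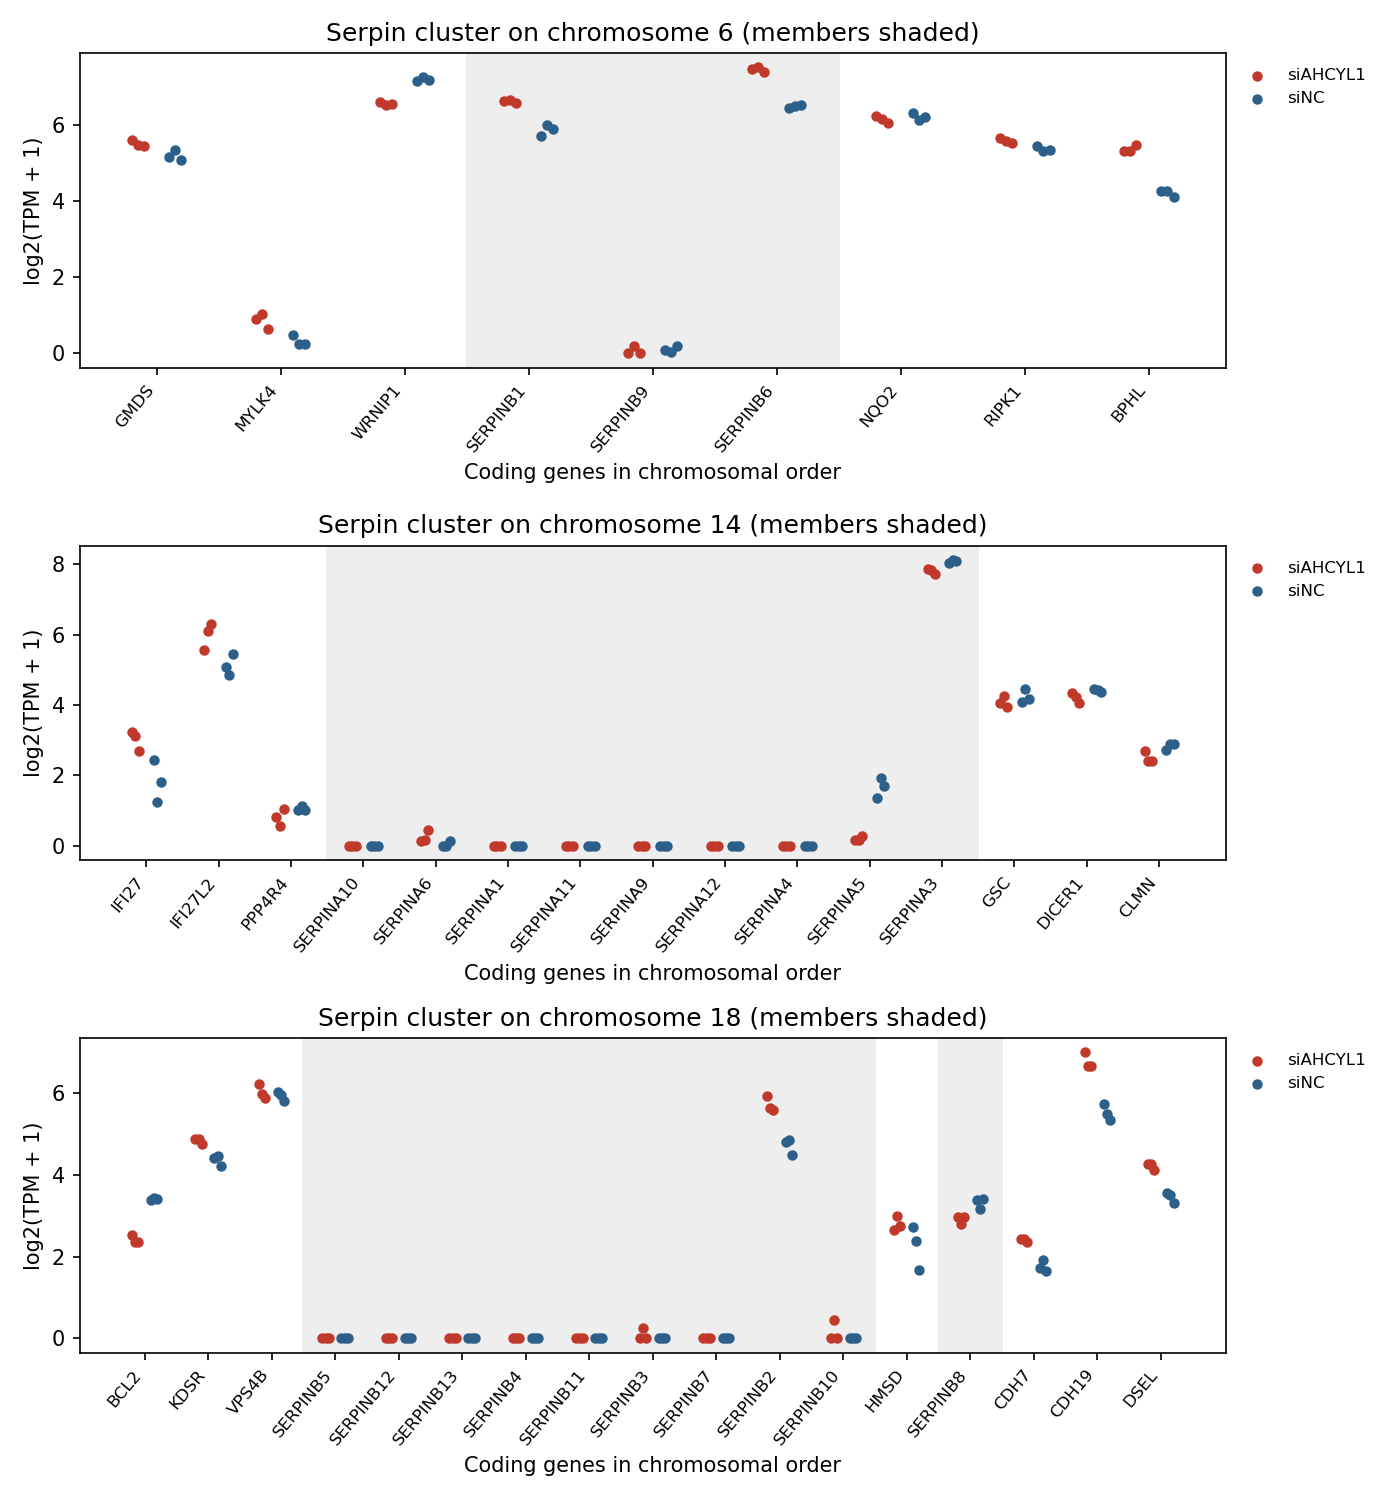
Levels of the coding genes in the 3 serpin clusters and of 3 flanking genes on each side, in chromosomal order, as log2(TPM + 1) for each library. Points of siAHCYL1 stand left of siNC and serpins are shaded. In the chromosome 14 and 18 clusters most serpins lie at or near 0, and SERPINA3 and SERPINB2 stand far above them.

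The lists of related genes that follow were fixed by role, with earlier results of these data known, and are described by their counts. Serpins act on proteases, and receptors clear the complexes. Over all genes tested 30.4% rose and 21.2% fell, 51.6% in all, and a list whose share lies near these values shows nothing particular to it. Of 14 plasminogen activation genes, 9 were tested, and 5 rose and 2 fell (median log2 fold change 0.48, beside 0.06 over all genes tested). PLAT, tissue plasminogen activator and the target of neuroserpin, was at 979.13, 984.17 and 929.88 TPM in siAHCYL1 libraries and at 595.71, 612.21 and 605.9 TPM in siNC libraries. It rose by 0.67 on the log2 scale (SE 0.053, limma adjusted p = 1.19e-05), and its level was above that of every serpin in every library. PLGRKT (0.71), a plasminogen receptor, and ANXA2 (0.52), annexin A2, a cell-surface platform for plasminogen activation, rose. ENO1, in the same list, fell (-0.33, limma adjusted p = 0.00151). PLAUR, the urokinase receptor, fell, with 123.22, 116.6 and 102.46 TPM in siAHCYL1 libraries and 154.3, 161.16 and 180.52 TPM in siNC libraries (-0.53, adjusted p = 0.000845). PLAU, urokinase itself, was under the filter, at 0.1, 0.39 and 0.18 TPM in siAHCYL1 libraries and at 0.58, 1.04 and 0.86 TPM in siNC libraries, and plasminogen (PLG) was listed at 0.

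Of 9 genes listed for the uptake of serpin complexes, 8 were tested. Not all are uptake receptors, as the list includes the receptor-binding protein LRPAP1 and the urokinase receptor PLAUR. Of the 8, 1 rose and 5 fell (median log2 fold change -0.57), beside 30.4% higher and 21.2% lower over all genes tested. Those that fell included SORL1 (-1.29, limma adjusted p = 6.13e-05), LRP2 (-1.29), VLDLR (-0.72) and PLAUR, which the plasminogen list also holds. LRP1, likewise in both lists and the main uptake receptor for SERPINE2 complexes, rose, with 38.68, 28.58 and 30.71 TPM in siAHCYL1 libraries and 17.76, 25.32 and 23.69 TPM in siNC libraries (0.54, SE 0.15, adjusted p = 0.0138).

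Of 20 coagulation proteases, cofactors and thrombin receptors, 8 were tested, and 3 rose and 3 fell (median 0.09). F2R, the thrombin receptor PAR1, fell (-0.74, limma adjusted p = 0.000199), with 16.97, 14.28 and 16.31 TPM in siAHCYL1 libraries and 28.22, 25.77 and 27.08 TPM in siNC libraries. F2RL1, the receptor PAR2, which trypsin-like enzymes cut, rose (0.89, adjusted p = 6.78e-05). PROCR, the protein C receptor, fell (-1.41), and THBD, thrombomodulin, which turns thrombin towards protein C, rose (1.37). Thrombin itself (F2), the best known target of SERPINE2, was listed at 0 in all libraries.

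Of 56 secreted and membrane serine proteases in the table, 21 were tested, and 10 rose and 5 fell (median 0.16). Of the 10, 3 (TMPRSS15, CFB and PCSK6) passed the filter only through siAHCYL1 libraries, so they had to differ, and the count and median include them. ST14, matriptase, a membrane protease, was at 214.03, 235.44 and 227.23 TPM in siAHCYL1 libraries and at 65.8, 61.96 and 57.55 TPM in siNC libraries (log2 fold change 1.85, SE 0.072, limma adjusted p = 3.0e-07). SPINT1, the matriptase inhibitor of the Kunitz family, rose too (0.77, adjusted p = 0.00318). C1RL, a complement-like protease, rose (1.87), while HTRA1 (-1.73), a secreted protease, and PRSS12 (-1.20), neurotrypsin, fell. FURIN, the target of SERPINB8, fell (-0.37, adjusted p = 0.000496), with 232.94, 246.19 and 238.86 TPM in siAHCYL1 libraries and 301.02, 312.1 and 315.98 TPM in siNC libraries. Both the convertase and its inhibitor were thus lower in siAHCYL1 libraries, though the SERPINB8 call was lost in 3 leave-one-out fits and its level is uncertain.

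The proteases that clade B serpins meet inside cells were mixed. Of 13 granule proteases of leukocytes, 7 were listed at 0 and 3 were tested, of which 2 rose. TPSAB1, the mast cell tryptase, was at 260.86, 294.07 and 313.02 TPM in siAHCYL1 libraries and at 29.99, 32.28 and 33.91 TPM in siNC libraries (log2 fold change 3.13, SE 0.083, limma adjusted p = 5.64e-08). TPSB2 also rose (2.55), and as near-identical copies the pair share reads. Of 11 papain-like cathepsins, 9 were tested, and 2 rose and 3 fell (median -0.25), with CTSV (-1.56) and CTSL (-0.63) lower and CTSO (0.94) and CTSZ (0.36) higher. Of 11 caspases, 9 were tested, and 3 rose and 1 fell (median 0.07), with CASP6 (0.60) and CASP8 (0.57) among those that rose. Over all genes tested 51.6% changed, near the share in both of these lists.

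Other inhibitor families changed in both directions as well. Of 45 endogenous protease inhibitors outside the serpins, 14 were tested, and 8 rose and 3 fell (median 0.28). TFPI, the tissue factor pathway inhibitor, was at 40.55, 32.79 and 31.88 TPM in siAHCYL1 libraries and at 6.17, 6.07 and 4.8 TPM in siNC libraries (log2 fold change 2.43, SE 0.13, limma adjusted p = 1.34e-06). RECK, a membrane inhibitor of matrix metalloproteases, was at 1.59, 1.32 and 1.73 TPM in siAHCYL1 libraries and at 14.47, 14.19 and 13.37 TPM in siNC libraries (-2.56, SE 0.13, adjusted p = 9.05e-07). SPOCK1 (-1.68), a proteoglycan with inhibitor domains, and ITIH5 (-0.63), an inter-alpha-trypsin inhibitor heavy chain, fell. Whether these families differ from the serpins was not tested.

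**Figure D4:**
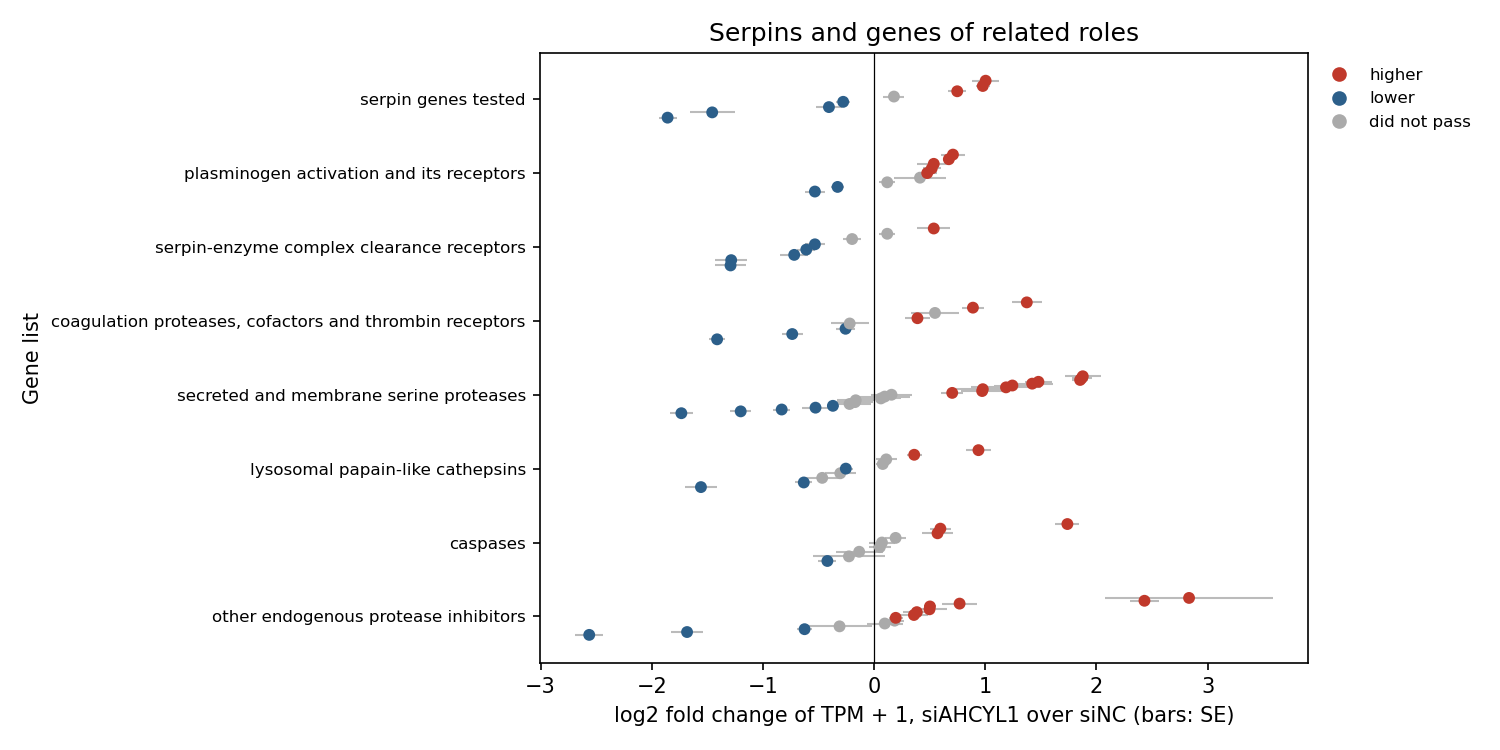
log2 fold change of TPM + 1, siAHCYL1 over siNC (horizontal axis), of the 8 serpins and of the tested genes of 7 related lists (rows), each point a gene with its SE. Red points rose, blue points fell and grey points did not pass an adjusted p of 0.05. Every row drawn has genes that rose and genes that fell. The serpins lie between -1.86 and 1.00, and the other inhibitors between -2.56 (RECK) and 2.83 (SPINK4). SPINK4 has a wide SE (0.75), with 13.78, 23.98 and 31.68 TPM in siAHCYL1 libraries and 1.54, 0 and 12.14 TPM in siNC libraries.

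Textbook regulators of serpin genes were listed too. TGF-beta is known to act on protease inhibitor genes, and of 23 TGF-beta and SMAD target genes measured, 21 were tested, with 5 higher and 5 lower (median -0.07). ID1 (1.30) and ID3 (0.99) rose, and TGFBI (-1.19) and PMEPA1 (-0.66) fell. SERPINB5 is a known p53 target, and of 24 p53 target genes measured, 22 were tested, with 5 higher and 5 lower (median -0.01), among them XPC (0.82) and BTG2 (1.02) higher and PHLDA3 (-0.94) and TP53INP1 (-0.74) lower. Of these 5 lower genes, 1 passed the filter only through siNC libraries. Of 5 receptors of SERPINF1, 4 were tested and 1, PLXDC2 (0.64), rose. SERPINH1, outside the name rule, rose by 1.39, and AGT stayed under 1 TPM.

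Markers of other cell types that make serpins were counted too. Of 10 fibroblast markers, 5 were listed at 0 and 2 were tested, of which LUM rose (1.00) and COL1A1 fell (-1.09). COL1A1 passed the filter only through siNC libraries, so it had to differ. The 10 markers summed to between 26.06 and 32.42 TPM in siAHCYL1 libraries and between 15.36 and 17.93 TPM in siNC libraries, most of it LUM. Of 8 endothelial markers, 1 (VWF) was listed at 0 and 2 were tested and both fell, EGFL7 (-0.86) and KDR (-0.45), with sums between 34.47 and 38.67 TPM in siAHCYL1 libraries and between 56.94 and 70.89 TPM in siNC libraries. The labels name only HMCB cells, so a marker here is a gene read in that line. Any link of these markers to the change of SERPINE2, which fibroblasts and endothelial cells also make, was not tested. Of 15 melanocytic markers in the table, 11 were tested, and 7 rose and 2 fell, with S100B (1.35), RAB27A (0.63) and S100A1 (0.57) higher and DCT (-3.23) lower. DCT passed the filter only through siNC libraries.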

How the data were processed

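RNA was sequenced from 6 HMCB libraries, 3 siAHCYL1 and 3 siNC. Per the labels' protocols, total RNA went into non-directional Illumina libraries. The authors deposited 1 table of TPM per gene symbol. The submitters' processing notes name STAR, RSEM and GRCh38. Their versions were not given in the sources used here. Columns with the prefix nc were matched to siNC, and those with si to the only other group.

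Differences in log2(TPM + 1) were then tested by limma 3.58.1 (R 4.3.3), two-sided and with moderation that follows mean level, and p-values were adjusted by Benjamini-Hochberg over all 13266 genes tested. Genes needed at least 1 TPM in at least 3 libraries, and the call threshold was an adjusted p of 0.05. Fold changes on this scale understate the change of low genes. The procedure was tested on simulated data. The serpin genes, the related lists and the alternatives were chosen with earlier results of these data known. By rule, the text describes the serpins, gives library values for changed members of at least 5 TPM and for others where few, and names from each list up to 4 changed genes with the smallest adjusted p, the changed gene most against its list, and further members chosen for their link to a serpin after their values were seen. Values of 1 serpin and of a few listed genes are not reported here. Gene positions are from GENCODE 29 (GRCh38), all 33 members matched, and upstream sequences are from RefSeq (GRCh38.p14).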

Additional observations from a re-analysis of the deposited data

How the results depend on the processing

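The test was refitted with other scalings (quantile or median-of-ratios), with the low-value filter removed or raised to 5 TPM, with 0.1 as pseudocount, with robust moderation and no trend, with a replicate block, without each library in turn, and without replicate 1 of both groups. In all, 6844 genes changed in the fit reported, and over these 14 refits the number ranged from 5672 to 7919, and from 5672 to 6799 with 1 library left out. The count of changed serpins was 7 and ranged from 6 to 7, also with 1 library left out. AHCYL1 ranged from -3.54 to -3.38 on the log2 scale, and from -3.53 to -3.38 with 1 library left out. No serpin changed direction in any refit. SERPINE2 (-1.94 to -1.81), SERPINB6 (0.89 to 1.01), SERPINB2 (0.89 to 1.08), SERPINB1 (0.65 to 0.81) and SERPINA3 (-0.35 to -0.23) passed in all 14, and SERPINI1 (adjusted p from 0.0566 to 0.378) in none. SERPINA5 passed in the 13 that kept it, and the filter at 5 TPM removed it. SERPINB8 lost its call in 3 of the leave-one-out fits, which have fewer samples, and ranged from -0.48 to -0.35 over all of them. The pairing of replicate numbers was checked on deviations from group means. Same-numbered pairs correlated at 0.233, 0.00092 and 0.154, and some libraries correlated better with another number, so the numbers were not taken to pair the samples. With the replicate block 7919 genes and the same count of 7 serpins changed, and AHCYL1 was at -3.44. Depth is unknown in TPM, so what it limits at low levels, such as those of SERPINA5 and of members under 1 TPM, could not be set.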
